A study of Mus musculus with 13 samples.

Results

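The promoters of 38 genes of the interferon response were followed in 13 ATAC-seq libraries of cultured mouse oligodendrocyte precursor cells (OPCs), the proliferating glia from which myelin-forming cells arise. In this assay a transposase cuts preferentially where chromatin is accessible, and regions rich in cuts are called as peaks. The genes were listed by name and by role. They were 9 transcription factors, 2 receptor subunits and 5 sensors or adaptors of foreign nucleic acid. The others were 7 enzymes that bind double-stranded RNA, or their relatives, and 15 other effectors. All 38 were found among the 55450 genes of the GENCODE M21 annotation of mm10. For each gene and library, the promoter was the stretch between 2 kb before and 1 kb after any annotated transcription start, and a gene was called when at least 1 peak overlapped it. The strength of a promoter is its fold, the enrichment of its highest peak over the local background of the same library, and its percentile is the rank of that fold among all peaks of the library.

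The cultures came from litters of mice that the labels name AMGFAP-Cre;K27M and the study names hGFAP-Cre;K27M. Pups were taken at postnatal days 5 to 7, and their tissue was pooled by region and genotype before the cells were purified. Cre, driven by a GFAP promoter that acts in neural stem and progenitor cells, switches on histone H3.3 K27M, and control pups are littermates without the activated mutation. Of the 4 groups, the brainstem gave 3 control and 3 K27M libraries, and the dorsal telencephalon, with cortex, corpus callosum and hippocampus, gave 3 control and 4 K27M libraries. In every group, a BSL1 lectin dish first took out endothelial cells and microglia, an antibody to PDGFRα then held the OPCs, and cells were grown undifferentiated with forskolin, CNTF, neurotrophin-3 and PDGF. Each culture pools pups of a litter, so the spread between libraries is that between cultures and not between single animals.

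Interferons are secreted alarm proteins made when a cell detects viral or misplaced nucleic acid. Type I interferon binds a receptor of the chains Ifnar1 and Ifnar2, which signals to a complex that holds Stat2 and Irf9. This complex binds the interferon-stimulated response element, a pair of GAAA blocks, in the promoters of antiviral genes. Some of the pathway is present before any signal, so that a cell can sense and respond, while many effector genes are known to be nearly silent until interferon arrives.

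The number of peaks differed between lists, from 16879 in control telencephalon 59 to 52466 in control brainstem 61, and the lists hold no read counts, so sequencing depth is unknown. A gene without a promoter peak is therefore described as not called, not as closed. Of 5 OPC markers, Pdgfra, Olig1, Olig2 and Sox10 were called in all 13 libraries and Cspg4 in 3. Of 8 microglial markers, between 0 and 3 were called per library, and the defining markers Cx3cr1, Csf1r, C1qa and Spi1 were called in 0 libraries, whereas P2ry12 was called in 12, Tmem119 in 4 and Aif1 in 2. Of 6 endothelial markers, 1 to 3 were called per library, with Cdh5 and Tek in 0 libraries, Pecam1 in 1, Cldn5 in 3, Kdr in 10 and Flt1 in 11. Promoters of other brain cell types were not all uncalled, since Gfap, Snap25, Syt1 and Tubb3 were called in 13 libraries. Their mean folds were 3.28, 3.84, 4.30 and 2.42. Those of the OPC markers were 2.51 at Pdgfra, 2.80 at Olig1, 2.84 at Olig2, 2.28 at Sox10 and 1.76 at Cspg4. These calls alone therefore do not tell the cell type.

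The 38 genes split into 17 called in all 13 libraries, 12 called in some and 9 called in none. As shares these were 44.7%, 31.6% and 23.7%, beside 42.0%, 27.4% and 30.6% of the 21951 protein-coding genes. In these deposited lists, whose lengths differ, both receptor chains and 6 of 9 transcription factors were called in every library. So were 2 of 5 sensors or adaptors, and no gene of these 3 roles was missing from all libraries. The 9 genes called in none included 5 of the 7 double-stranded RNA enzymes and relatives, namely Oas1a, Oas2, Oas3, Oasl1 and Oasl2. The rest were 4 of the 15 other effectors, namely Isg15, Ifit3, Ifi35 and Ifi44. With the lists cut to equal length, Irf5, Irf7, Irf9, Ddx58, Dhx58 and Tmem173 were also called in none. No test was run on these counts, because the genes were chosen with earlier results of these data known.

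**Figure D1:**
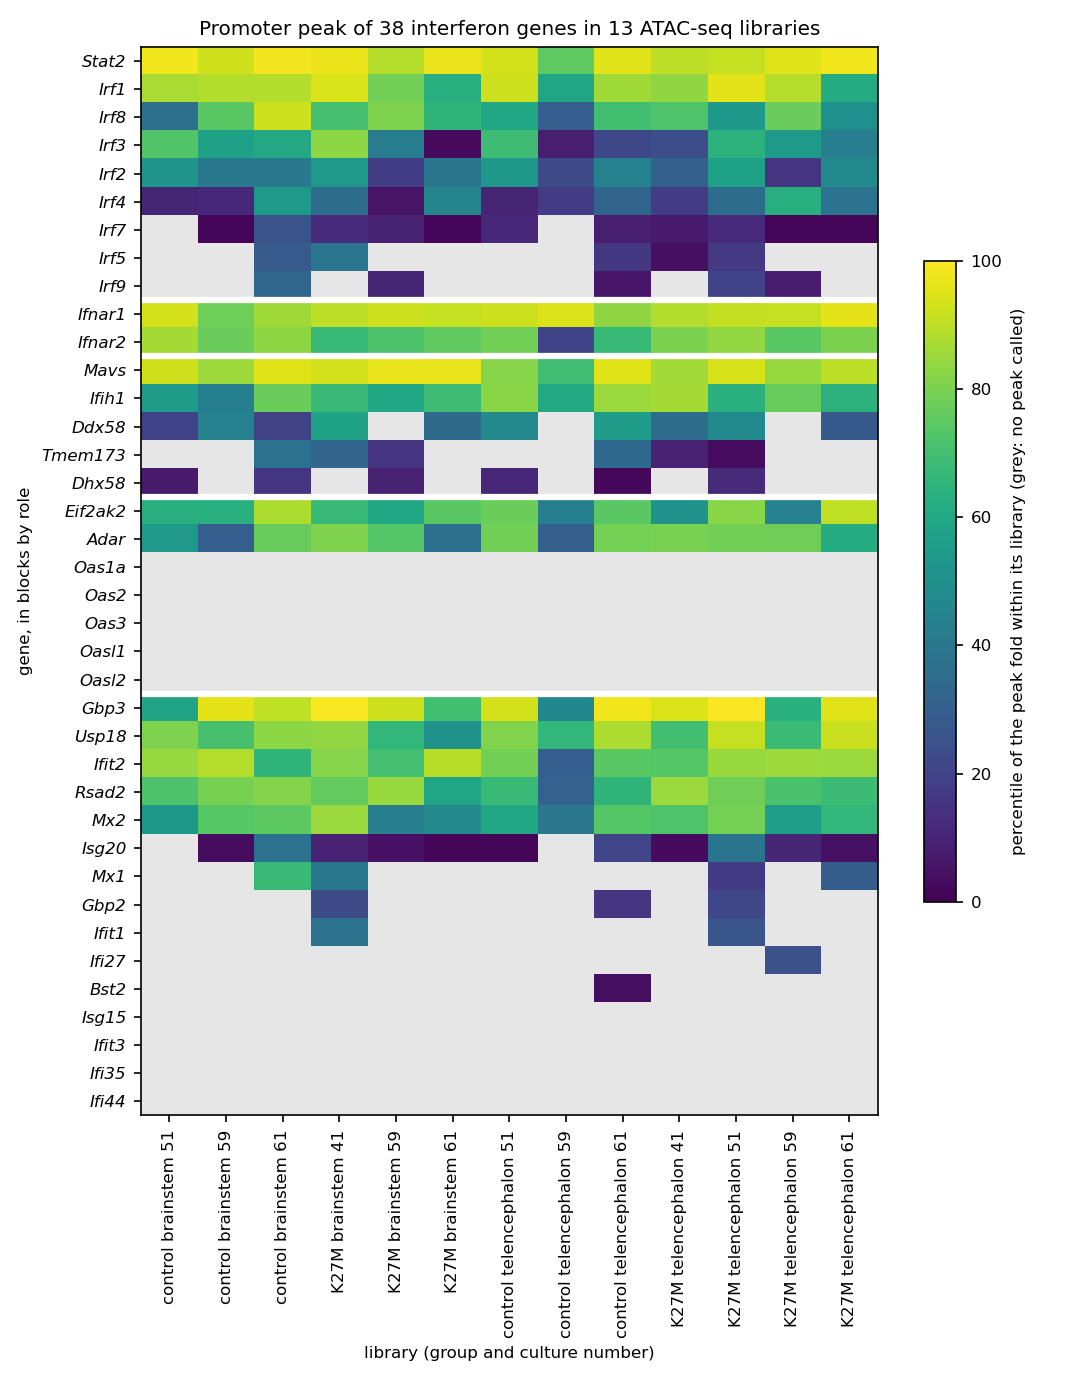
Each row is 1 of the 38 genes and each column 1 of the 13 libraries. Blocks by role run from the top: transcription factors, receptor chains, sensors and adaptors, double-stranded RNA enzymes and relatives, other effectors. Colour gives the percentile of the promoter peak within its library and grey means no peak was called. The 5 Oas and Oasl genes and 4 effectors are grey throughout, while Stat2, Ifnar1, Mavs and Gbp3 are bright in most columns.

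The sequences below show that the response element stands both in promoters called everywhere and in promoters called nowhere. They were taken from the RefSeq promoter table for GRCm38, the assembly of mm10, which runs from 250 bases before to 50 bases after a start and matched 31 of the 38 genes. Dhx58, Tmem173, Oas2, Ifi27, Mx1, Mx2 and Usp18 were not matched. The motif searched was GAAANNGAAA on either strand, read on the other strand as TTTCNNTTTC, with overlapping matches kept. Letters are written 5′ to 3′ on the strand of the gene, with matches in capitals. Isg15, which encodes a ubiquitin-like modifier, Ifit3, which encodes an RNA-binding antiviral protein, and Oas3, which encodes an oligoadenylate synthetase, were called in 0 libraries. Ifit1, of the same family as Ifit3, was called in 2. Gbp3, which encodes an interferon-induced GTPase, Rsad2, which encodes the antiviral enzyme viperin, and Stat2 were called in 13.
Isg15 (chr4:156200850-156200921, minus strand): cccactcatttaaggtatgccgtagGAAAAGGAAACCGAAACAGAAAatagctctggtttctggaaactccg
Ifit3 (chr19:34583348-34583441, plus strand): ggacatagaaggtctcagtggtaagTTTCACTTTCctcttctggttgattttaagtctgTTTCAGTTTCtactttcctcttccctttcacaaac
Oas3 (chr5:120777700-120777759, minus strand): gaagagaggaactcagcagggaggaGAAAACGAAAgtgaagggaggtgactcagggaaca
Ifit1 (chr19:34640760-34640838, plus strand): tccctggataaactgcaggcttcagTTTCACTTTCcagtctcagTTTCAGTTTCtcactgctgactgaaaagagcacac
Gbp3 (chr3:142559974-142560039, plus strand): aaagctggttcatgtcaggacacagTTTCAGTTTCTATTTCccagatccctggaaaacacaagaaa
Rsad2 (chr12:26456538-26456597, minus strand): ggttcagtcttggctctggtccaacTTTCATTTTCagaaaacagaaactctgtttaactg
Stat2 (chr10:128270251-128270310, plus strand): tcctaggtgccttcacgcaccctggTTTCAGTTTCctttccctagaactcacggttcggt

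The motif was present in 14 of the 31 matched genes (45.2%), beside 666 of 16539 protein-coding genes (4.03%) and 1131 of 32851 promoters (3.44%). By detection it was present in 6 of 15 genes called in all libraries, 4 of 8 called in some and 4 of 8 called in none. Among all protein-coding genes, 37.2% of those with the motif and 44.6% of those without it were called in every library, and 37.7% and 28.5% were called in none. A called peak lay over the motif in 13 libraries at Gbp3, Eif2ak2 and Ifih1, in 12 at Rsad2 and Irf2, in 9 at Stat2 and Ddx58, and in 2 at Gbp2 and Ifit1. No peak covered it at Isg15, Ifit3, Oas1a, Oas3 or Bst2. A match describes letters in this window and is not evidence that a factor was bound.

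Promoters of the 3 classes also differed in CpG content, given as the CpG count over that expected from the bases of the window, with the highest of the listed starts taken per gene. The median was 0.712 for the 15 matched genes called in all libraries, 0.351 for the 8 called in some and 0.229 for the 8 called in none. The medians over protein-coding genes were 0.816, 0.617 and 0.174, so the order was that of the genome at large. Gbp3 at 0.153, Rsad2 at 0.291 and Irf4 at 0.398 were called in every library with little CpG, and Irf5 at 0.889 was called in 5. The last 100 bases before the start are shown for a CpG-rich promoter called in 13 libraries (Irf8), a CpG-poor promoter called in 13 (Gbp3) and a CpG-poor promoter called in 0 (Ifi35), with each CG in capitals. The Gbp3 start shown is not the one that gave 0.153, and its own value was 0.130.
Irf8 (chr8:120736258-120736357, plus strand): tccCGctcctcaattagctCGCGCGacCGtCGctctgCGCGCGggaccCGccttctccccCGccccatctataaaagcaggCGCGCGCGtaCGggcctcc
Gbp3 (chr3:142559944-142560043, plus strand): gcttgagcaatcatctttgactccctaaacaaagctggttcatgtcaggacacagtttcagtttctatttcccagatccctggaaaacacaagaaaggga
Ifi35 (chr11:101448312-101448411, plus strand): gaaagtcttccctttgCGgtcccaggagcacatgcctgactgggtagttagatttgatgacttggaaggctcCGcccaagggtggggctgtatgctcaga

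**Figure D2:**
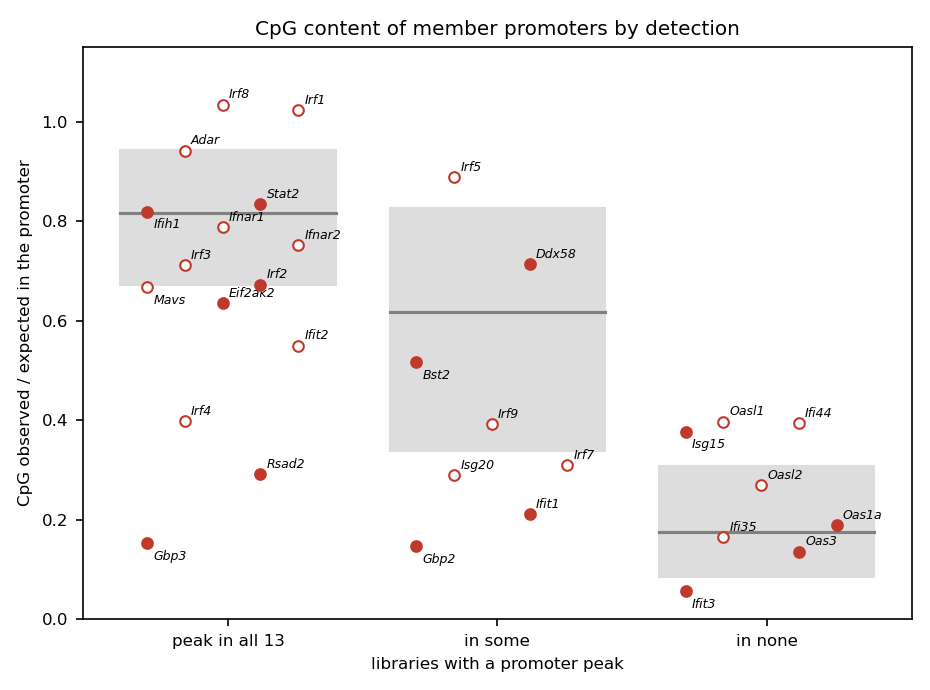
CpG observed over expected (vertical axis) of the 31 matched genes, in columns by whether a promoter peak was called in all 13, some or none of the libraries. Filled points hold the GAAANNGAAA motif, grey boxes span the quartiles of protein-coding genes of that class and grey lines their median. Gbp3, Rsad2 and Irf4 stand low in the first column.

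The number of the 38 genes called per library ranged from 17 to 27. The 4 lists with more than 45000 peaks held 25 to 27 and the other 9 held 17 to 22. The share of protein-coding genes called also varied, from 44.4% in control telencephalon 59 to 64.0% in control brainstem 61, beside 44.7% and 65.8% of the 38. Group means were 21.3 ± 3.21 (SD, n = 3) in control brainstem, 22.3 ± 2.52 (n = 3) in K27M brainstem, 21.3 ± 4.51 (n = 3) in control telencephalon and 22.8 ± 2.87 (n = 4) in K27M telencephalon, so the groups overlapped. In the same order, the mean share of protein-coding genes called was 58.8%, 59.1%, 55.3% and 60.1%. With every list reduced to its 16879 most significant peaks, 13 to 17 genes were called per library. At that equal number 10 genes were called in all libraries, 7 in some and 21 in none, and none of the 12 genes called in some of the deposited lists was called in any. The shares, 26.3%, 18.4% and 55.3%, stood beside 30.3%, 26.2% and 43.5% of protein-coding genes. The 10 called in all were Irf1, Irf2, Stat2, Ifnar1, Ifnar2, Mavs, Ifit2, Mx2, Usp18 and Gbp3. The 7 called in some were Irf3, Irf4, Irf8, Ifih1, Eif2ak2, Adar and Rsad2.

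**Figure D3:**
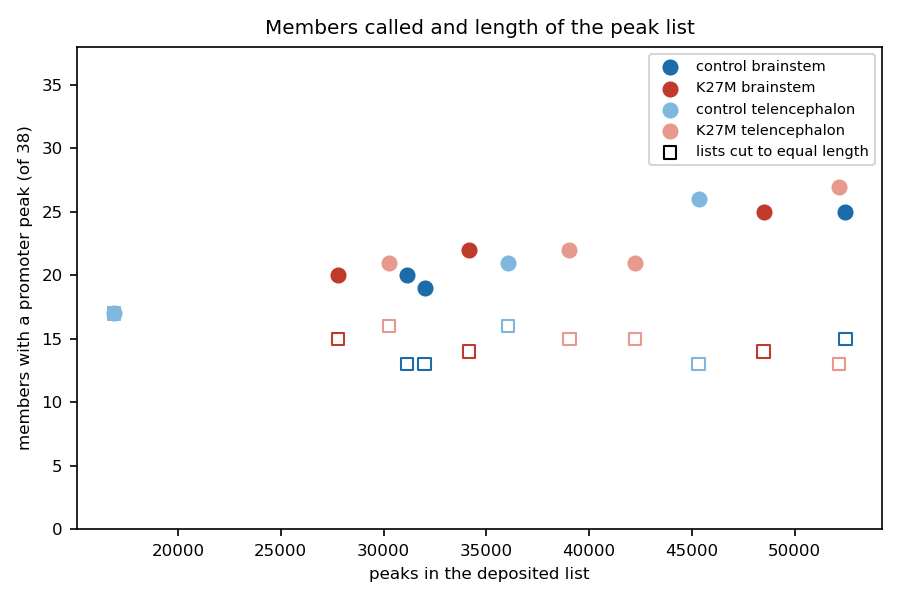
Genes with a promoter peak, of 38 (vertical axis), against the number of peaks in the list (horizontal axis), for 13 libraries coloured by group. Filled circles are the deposited lists and open squares the same libraries cut to 16879 peaks. Circles climb from 17 to 27 with list length and squares lie between 13 and 17.

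Among the transcription factors, Stat2, a part of the interferon complex, had the highest mean percentile of all 38 genes, 93.1. Its fold was 4.30 ± 0.560 (SD, n = 13) and ranged from 3.16 to 5.27. Irf1, an activator induced by interferons, followed at 82.1, with a fold of 3.80 ± 0.612. Irf8, known from myeloid cells and microglia, was called in all 13 libraries with a mean percentile of 64.1, beside 0 libraries for the microglial factor Spi1. Irf3, which the sensing adaptors switch on, averaged 46.3, Irf2, a repressor of interferon genes, 39.6, and Irf4, a lymphoid factor, 28.8. These 3 were the only genes called in every library with a mean percentile under 50. Irf3 shares its peak with the neighbour Bcl2l12 and Irf2 shares its own with Gm16675, so those folds cannot be assigned to 1 gene.

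The remaining 3 factors were called in some libraries. Irf7, the factor that amplifies the type I response, was called in 11 libraries, with folds, culture numbers in parentheses, of 2.29 (59) and 2.69 (61) in control brainstem, 2.30 (41), 2.55 (59) and 2.15 (61) in K27M brainstem, 2.32 (51) and 2.41 (61) in control telencephalon and 2.37 (41), 2.33 (51), 2.22 (59) and 2.103 (61) in K27M telencephalon. Its mean percentile was 8.54, and the libraries without it were control brainstem 51 and control telencephalon 59. Irf5, which acts in inflammatory signalling, had folds of 2.72 (61) in control brainstem, 2.63 (41) in K27M brainstem, 2.54 (61) in control telencephalon and 2.29 (41) and 2.38 (51) in K27M telencephalon. Irf9, the DNA-binding part of the interferon complex, had folds of 2.78 (61) in control brainstem, 2.57 (59) in K27M brainstem, 2.35 (61) in control telencephalon and 2.41 (51) and 2.50 (59) in K27M telencephalon. Irf5 and Irf9 were each called in 5 libraries, 3 of 7 from K27M and 2 of 6 from control, and in 2 of 6 from brainstem and 3 of 7 from telencephalon.

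The receptor was called in full. Ifnar1 had a fold of 4.00 ± 0.283 (SD, n = 13) and a mean percentile of 89.9, and Ifnar2 had a fold of 3.46 ± 0.371 and a mean percentile of 72.8. Ifnar1 varied between 3.50 and 4.41, while Ifnar2 fell to 2.58 in control telencephalon 59 and reached 4.07 in control brainstem 61.

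Among sensors and adaptors, Mavs, the mitochondrial adaptor of RNA sensing, was called in all libraries with a fold of 4.07 ± 0.580 and a mean percentile of 89.3. Ifih1, the sensor MDA5 of long double-stranded RNA, was also called in all, with a fold of 3.32 ± 0.341 and a mean percentile of 68.5. The related RNA sensor Ddx58, or RIG-I, was called in 10 libraries with folds of 2.65 (51), 2.93 (59) and 2.61 (61) in control brainstem, 3.03 (41) and 2.69 (61) in K27M brainstem, 2.66 (51) and 3.13 (61) in control telencephalon and 2.65 (41), 2.84 (51) and 2.54 (61) in K27M telencephalon. Control telencephalon 59, K27M brainstem 59 and K27M telencephalon 59 lacked it.

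Dhx58, a regulator of both sensors, was called in 6 libraries with folds of 2.46 (51) and 2.56 (61) in control brainstem, 2.55 (59) in K27M brainstem, 2.32 (51) and 2.19 (61) in control telencephalon and 2.33 (51) in K27M telencephalon. Its peaks lay a median of 538.5 bp from a start and covered a start in 0 libraries. Tmem173, the adaptor STING of DNA sensing, was called in 6 libraries with folds of 2.85 (61) in control brainstem, 2.53 (41) and 2.63 (59) in K27M brainstem, 2.77 (61) in control telencephalon and 2.40 (41) and 2.18 (51) in K27M telencephalon. Dhx58 was called in 2 of 7 K27M and 4 of 6 control libraries and Tmem173 in 4 of 7 and 2 of 6, and each was called in 3 of 6 brainstem and 3 of 7 telencephalon libraries.

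Of the enzymes that bind double-stranded RNA and their relatives, 2 were called in all libraries and 5 in none. Eif2ak2, the kinase PKR that stops translation, had a fold of 3.36 ± 0.445 (SD, n = 13), from a peak shared with Gm26637. Adar, the adenosine deaminase that marks RNA as the cell's own, had a fold of 3.31 ± 0.433. The oligoadenylate synthetase genes and their relatives lie in 2 stretches of chromosome 5 and had no promoter peak. The nearest peak to a start of Oas1a was at least 8208 bp away in any library, of Oas2 3824 bp, of Oas3 13537 bp, of Oasl1 5501 bp and of Oasl2 4033 bp.

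Among the other effectors, 5 were called in all libraries. Gbp3 had the largest spread between libraries of the 17, with a fold of 4.13 ± 0.918 (SD, n = 13), a range from 2.82 to 5.66 and a mean percentile of 84.4. Usp18, a protease that removes the Isg15 modifier and damps receptor signalling, had a fold of 3.58 ± 0.494. Ifit2, an antiviral RNA-binding protein, had 3.55 ± 0.356, Rsad2 had 3.40 ± 0.372 and Mx2, a dynamin-like antiviral GTPase, had 3.26 ± 0.415. Neighbours of the same family parted: Ifit2 was called in 13 libraries, Ifit1 in 2 and Ifit3 in 0, Mx2 was called in 13 and Mx1 in 4, and Gbp3 was called in 13 and Gbp2 in 3.

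The effectors called in some libraries had low folds. Isg20, an exonuclease, was called in 11 libraries with folds of 2.39 (59) and 2.85 (61) in control brainstem, 2.28 (41), 2.44 (59) and 2.104 (61) in K27M brainstem, 2.05 (51) and 2.60 (61) in control telencephalon and 2.25 (41), 2.66 (51), 2.55 (59) and 2.21 (61) in K27M telencephalon, and it was missing from the same libraries as Irf7. Mx1, the sister gene of Mx2, had folds of 3.51 (61) in control brainstem, 2.65 (41) in K27M brainstem and 2.38 (51) and 2.55 (61) in K27M telencephalon, of which the first was the highest of any gene called in only some libraries. Gbp2, a GTPase like Gbp3, had folds of 2.40 (41) in K27M brainstem, 2.53 (61) in control telencephalon and 2.43 (51) in K27M telencephalon.

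Ifit1 had folds of 2.61 (41) in K27M brainstem and 2.49 (51) in K27M telencephalon, from a peak shared with Ifit1bl2. It was called in 2 of 7 K27M and 0 of 6 control libraries. A gene called in only 2 libraries cannot go below an unadjusted p of 0.05 in Fisher's exact test. Its value of 0.462 by that test therefore decides nothing. Over the 11608 genes called in 1 to 12 libraries, that test called 0 by genotype, and 1 gene split completely could not have passed the adjustment there. Ifi27, a membrane protein gene used as a readout of interferon, was called once, at 2.72 (59) in K27M telencephalon. Bst2, the tetherin that holds budding virus, was called once, at 2.26 (61) in control telencephalon. The 4 lists with more than 45000 peaks held 8 to 10 of the 12 genes called in some libraries and the other 9 lists held 0 to 5, with Ifi27 called in a list of 30248 peaks. The part of list length in these calls was not tested.

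The 4 effectors never called differed in how near a peak lay. Isg15 had a peak between 2096 and 2594 bp from its start in all 13 libraries, outside the promoter window. Ifi35 had one between 5307 and 5769 bp. The nearest peak was at least 12033 bp away for Ifi44 and 20010 bp for Ifit3.

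Detection was compared by region (6 brainstem against 7 telencephalon libraries) and by genotype (7 K27M against 6 control) by Fisher's exact test, two-sided, over the 1814 genes called in 5 to 8 libraries, adjusted over all of them by the Benjamini-Hochberg method. No gene was called in either comparison (0% of those tested), with 39 genes at an unadjusted p under 0.05 by region and 22 by genotype. The lowest exact p possible for 6 against 7 libraries is 0.000583. After adjustment over 1814 genes, 1 gene split completely could not pass on its own. The count of 0 therefore does not show that detection was the same. Of the 38, Irf5, Irf9, Dhx58 and Tmem173 could be tested. By region each had an exact p of 1. By genotype the exact p was 1 for Irf5 and Irf9, 0.286 for Dhx58 and 0.592 for Tmem173, all with an adjusted p of 1. Irf7 and Isg20, each called in 7 of 7 K27M and 4 of 6 control libraries, lay outside the range tested, and their unadjusted exact p was 0.192 when the range was widened to 1 to 12 libraries. No split of a gene called in 11 libraries gives a lower value, so this p could not show a difference. Inside a single region or genotype, 3 against 3 libraries cannot go below an exact p of 0.1 and 3 against 4 cannot go below 0.0286, so only counts are given there.

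The 17 genes called in every library were compared in strength. The log2 fold was set relative to the median over the 11483 genes called in all 13 libraries, and limma was fitted to all of these genes with the 4 groups and the culture number. Relative to this median, Stat2, Mavs, Gbp3, Ifnar1 and Irf1 stood highest and Irf3, Irf2 and Irf4 lowest. None of the 17 passed an adjusted p of 0.05 in any of the 7 comparisons fitted, and few genes of the genome did. In the paragraphs on these comparisons, the relative log2 folds of a group are listed in the order of its culture numbers, which were 51, 59 and 61 for both control groups, 41, 59 and 61 for K27M brainstem, and 41, 51, 59 and 61 for K27M telencephalon.

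**Figure D4:**
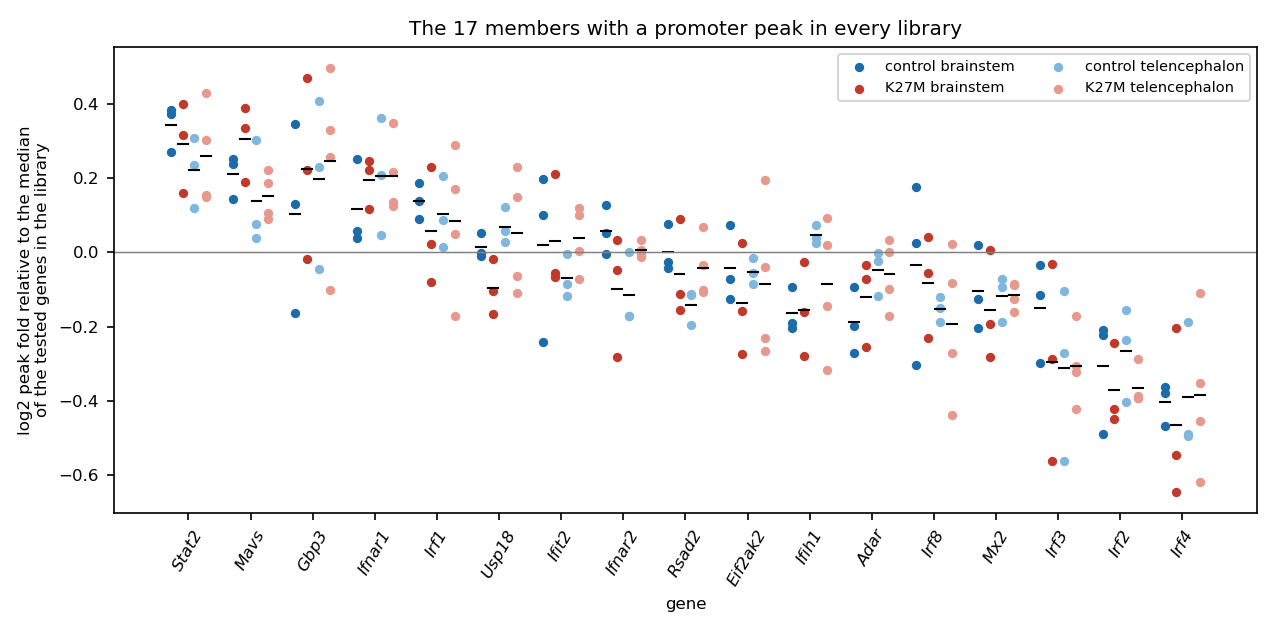
Log2 fold of the promoter peak relative to the median of the 11483 tested genes in the same library (vertical axis) for the 17 genes called in all libraries, ordered by mean. Each point is 1 library, coloured by group, and black bars are group means. The groups overlap at nearly every gene, and Ifih1 in control brainstem lies below control telencephalon.

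Genotype in brainstem gave 0 called genes of 11483 (0%), with 439 at an unadjusted p under 0.05. Of the 17, 5 were higher and 12 lower in K27M, with a median log2 difference of -0.04 beside 0.00 over all genes. The largest differences were at Irf3, Mavs and Ifnar1. Relative log2 folds of Irf3 were -0.03, -0.29 and -0.56 in K27M and -0.03, -0.12 and -0.30 in control, a difference of -0.13 (SE 0.12, adjusted p = 1.00 by limma). Those of Mavs were 0.19, 0.34 and 0.39 in K27M and 0.24, 0.14 and 0.25 in control, a difference of 0.13 (SE 0.10, adjusted p = 1.00 by limma). Both pairs of groups overlapped. Those of Ifnar1 were 0.12, 0.22 and 0.25 in K27M and 0.25, 0.06 and 0.04 in control, a difference of 0.12 (SE 0.11, adjusted p = 1.00 by limma), again with overlap. Groups did not overlap at 1 of the 17 genes, Usp18 (chosen after its values were seen), beside 8.27% of all tested genes.

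Genotype in telencephalon also gave 0 called genes (0%), with 475 at an unadjusted p under 0.05. Of the 17, 9 were higher and 8 lower in K27M. Relative log2 folds of Ifnar2 were 0.01, -0.01, -0.00 and 0.03 in K27M and 0.00, -0.17 and -0.17 in control, a difference of 0.15 (SE 0.09, adjusted p = 1.00 by limma). Those of Ifih1 were 0.09, -0.32, 0.02 and -0.14 in K27M and 0.04, 0.02 and 0.07 in control, a difference of -0.15 (SE 0.10, adjusted p = 1.00 by limma). The groups overlapped at both genes. Those of Ifit2 were -0.07, 0.00, 0.12 and 0.10 in K27M and -0.00, -0.12 and -0.09 in control, a difference of 0.14 (SE 0.10, adjusted p = 1.00 by limma), with overlap. Groups did not overlap at 1 of the 17, Rsad2 (chosen after its values were seen), beside 4.86% of all tested genes.

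Region in control cultures gave 0 called genes (0%), with 548 at an unadjusted p under 0.05. Of the 17, 10 were higher and 7 lower in brainstem. Ifih1 was lowest relative to telencephalon, with relative log2 folds of -0.19, -0.20 and -0.09 in brainstem and 0.04, 0.02 and 0.07 in telencephalon, a difference of -0.21 (SE 0.10, adjusted p = 0.956 by limma). These groups did not overlap. Ifnar2 had 0.13, 0.05 and -0.00 in brainstem and 0.00, -0.17 and -0.17 in telencephalon, a difference of 0.17 (SE 0.10, adjusted p = 0.956 by limma). Irf3 had -0.03, -0.12 and -0.30 in brainstem and -0.10, -0.27 and -0.56 in telencephalon, a difference of 0.16 (SE 0.11, adjusted p = 0.956 by limma), and the ranges of both genes overlapped between regions. Within each of the 3 shared cultures, brainstem was higher at both Ifnar2 and Irf3 and lower at Ifih1. Groups did not overlap at 2 of the 17, Ifih1 and Rsad2, beside 9.87% of all tested genes.

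Region in K27M cultures gave 3 called genes (0.0261%), with 430 at an unadjusted p under 0.05. They were Crnde, Irx5 and Gm47870, named after their values were seen, and Crnde and Irx5 gave the same values. Of the 17, 8 were higher and 9 lower in brainstem, and groups did not overlap at 0 of them, beside 4.55% of all tested genes. Mavs had relative log2 folds of 0.19, 0.34 and 0.39 in brainstem and 0.09, 0.22, 0.11 and 0.19 in telencephalon, a difference of 0.16 (SE 0.09, adjusted p = 0.999 by limma). Usp18 had -0.02, -0.10 and -0.17 in brainstem and -0.11, 0.15, -0.06 and 0.23 in telencephalon, a difference of -0.13 (SE 0.10, adjusted p = 0.999 by limma). At both the higher group reached into the lower. Irf4 had -0.64, -0.55 and -0.20 in brainstem and -0.45, -0.62, -0.11 and -0.35 in telencephalon, a difference of -0.12 (SE 0.10, adjusted p = 0.999 by limma).

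**Figure D5:**
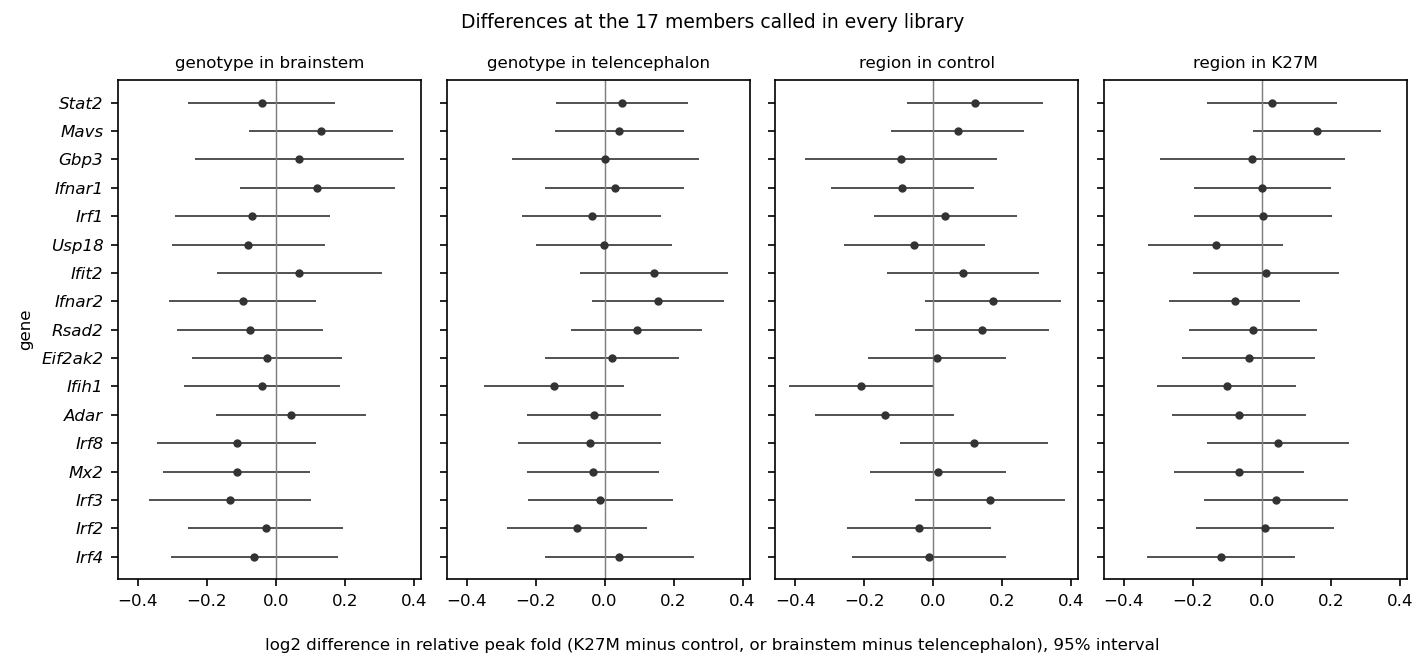
Log2 difference in relative fold with its 95% interval from limma (horizontal axis) for the 17 genes called in all libraries, in 4 panels for genotype within each region (K27M minus control) and region within each genotype (brainstem minus telencephalon). Every interval reaches 0, including that of Ifih1 by region in control cultures, which runs from -0.42 to 0.00.

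Libraries with the same culture number were also set against each other, a count added after the values were seen. By region in control cultures, 6 of the 17 genes differed in the same direction in all 3 shared cultures, beside 28.4% of all tested genes. Stat2, Ifnar2, Irf3 and Rsad2 were higher in brainstem in each, and Ifih1 and Adar were lower. By region in K27M cultures this held for 2 of the 17 in 3 shared cultures, beside 25.7% of all tested genes, with Mavs higher and Adar lower in brainstem. By genotype in telencephalon it held for 3 of the 17 in 3 shared cultures, beside 23.3%, with Ifit2 and Rsad2 higher and Ifih1 lower in K27M. By genotype in brainstem, where 2 cultures were shared, it held for 9 of the 17, beside 49.2%.

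Over both genotypes, region gave 2 called genes (0.0174%), the pair Crnde and Irx5, with 583 at an unadjusted p under 0.05. Ifih1 was the 1 gene of the 17 with an unadjusted p under 0.05, at a difference of -0.15 (SE 0.07, adjusted p = 0.952 by limma). Over both regions, genotype gave 0 called genes (0%), with 499 at an unadjusted p under 0.05, and the 17 differences ran from -0.09 to 0.11. The genotype effect differed between regions at 0 genes (0%), with 433 at an unadjusted p under 0.05. The largest difference of effects among the 17 was -0.25 at Ifnar2 (SE 0.13, adjusted p = 1.00 by limma). These comparisons share libraries and are not independent of each other. The 95% intervals of the 17 genes within a region or genotype reached at most from 0.749-fold to 1.30-fold, so differences up to that size could not be told from none.

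A further 43 genes of the pathway were read the same way, and 16 were called in all libraries (37.2%), 22 in some (51.2%) and 5 in none (11.6%), beside 42.0%, 27.4% and 30.6% of protein-coding genes. The 16 included the kinases Jak1 and Tyk2, which carry the receptor signal, the receptor chain Ifngr1 and the antigen presentation genes B2m, Tap1 and Psmb9, of which Tap1 and Psmb9 gave the same values. The 5 never called were Ifnb1, the gene of interferon beta itself, the RNA receptor Tlr7, the DNA exonuclease Trex1, Ifitm1 and Epsti1. None of the 16 passed the adjusted threshold in any of the 7 comparisons. The 4 of the 43 called in 5 to 8 libraries gave 0 called genes by region and by genotype.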

How the data were processed

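ATAC-seq peak lists of 13 libraries were analysed. The authors ran the nf-core ATAC-seq pipeline. Per the labels and the study's methods it used BWA 0.7.17-r1188 with the mm10 genome, left out reads in blacklisted regions, and used MACS2 2.2.7.1 for broad peaks of each library alone. The cutoff of the calls is not given in the sources used here. The deposited fold is the ratio of a peak to the local background of its own library, and the deposited −log10 p-value and −log10 q-value are means over the peak. The deposited score was used only to check the format. No values were normalised between libraries, and depth is unknown.

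Genes and starts came from GENCODE M21, with a minimum overlap of 1 bp. The log2 fold, centred on the median of tested genes in each library, was fitted with limma 3.58.1 in R 4.3.3 using 4 group means and the culture number as a block. Detection was tested with Fisher's exact test in scipy 1.17.1. Both were adjusted by Benjamini-Hochberg over all genes tested, with a threshold of 0.05, and tested on simulated data. The study describes matched cultures, whose deviations from group means correlated at a mean of 0.0807 over 16 pairs with the same number (-0.105 to 0.288) and -0.0275 over 47 pairs with different numbers.

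All 38 genes are named by role. Values per library are given for genes called in 1 to 12 libraries and, of those called in all, for the 3 largest differences in each of 4 comparisons. Counts cover whole lists, but some genes of the lists are not reported here singly. The members and lists were chosen with earlier results of these data known. Alternatives were a fit without the block, percentiles, no centring, equal peak number, p of at most 1e-10, a promoter of 1000 bp upstream and 500 bp downstream, an overlap of 200 bp, the peak nearest to a start, a wider range of libraries, permutation within culture number and leaving out each library.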

Additional observations from a re-analysis of the deposited data

Results flagged for a closer look

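In the 4 K27M telencephalon libraries, the relative log2 fold of Irf2 was -0.29 in culture 61, far from the other 3, which lay together near -0.39. In the same group, 27 of the 38 genes were called in culture 51, whereas the other 3 libraries held 21 or 22, and culture 51 also had the longest peak list of the group, 52164 peaks. The part of list length in this count was not tested. Of protein-coding genes, 63.5% were called in culture 51, beside 59.6%, 56.6% and 60.4% in cultures 41, 59 and 61 of this group. A library far from the rest was sought in 18 measures of this group and found in 2, and chance marks about 1 in 20 such measures. None of the 17 genes tested passed the threshold for a genotype effect that differed between regions.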

How the results depend on the processing

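The count of genes of the 38 called by limma or Fisher's exact test was 0 in every comparison under every alternative that could be run. At equal peak number limma covered 10 of the 38, without Irf3, Irf4, Irf8, Ifih1, Eif2ak2, Adar and Rsad2. Fisher's test by region then covered 2 of the 38 and called 0 of 1838 genes. Of the 2, Ifih1 was called in 1 of 6 brainstem and 5 of 7 telencephalon libraries, and Eif2ak2 in 2 of 6 and 3 of 7. With peaks of p at most 1e-10, none of the 38 had a peak in all libraries, so no strength could be compared. Classes moved with the lists: the counts in all, some and no library were 10, 7 and 21 at equal peak number, and at p of at most 1e-10 they were 0 in all and 23 in none. Over all genes, region in K27M called 5 without the block, 0 with percentiles, without centring or at p of at most 1e-10, and 0 to 3 when a library was left out. Region over both genotypes called 4 without the block, 0 without centring or at p of at most 1e-10, 1 with the narrower promoter, and 2 to 6 when a library was left out. With the peak nearest to a start, genotype in brainstem and region in control called 1 each. Leaving out a library gave 0 to 1 for genotype in brainstem and for genotype over both regions. Of the named differences, Irf4 by region in K27M ranged from -0.28 to 0.015 when a library was left out, turning to 0.015 without K27M brainstem culture 59. Fitting without the replicate block changed no call at the 38 genes. In the exact permutation within culture number, the replicate block on detection, 0 genes were called by region and 0 by genotype. With 216 arrangements by region and 108 by genotype, 1 gene split completely could not have passed on its own there either. The cause of these shifts was not tested. Because depth is unknown, genes at low folds may be uncalled through yield alone.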
